A study of Papio anubis and Macaca mulatta with 6 samples.

Results

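T lymphocytes and natural killer (NK) cells of the prepubertal primate testis were examined as 121 barcodes among 63166 barcodes with at least 500 unique molecular identifiers (UMIs, each standing for 1 captured RNA molecule). The barcodes were chosen on measured values. Each had a UMI of at least 3 of the 8 genes CD3D, CD3E, CD3G, CD2, IL7R, NKG7, CCL5 and CST7, and of fewer than 2 of the 6 macrophage genes C1QA, C1QB, C1QC, CD14, CD163 and CSF1R. They are called lymphocytes below, and all remaining barcodes of at least 500 UMIs of the same species are called other barcodes. A CD3 gene, which defines T cells, was found in 114 of the 121 (94.2%), but the CD3 genes are part of the rule and this share is largely set by it. A constant region of the T cell receptor, which the rule did not use, was found in most lymphocytes of both species (below). Of the 7 barcodes without a CD3 UMI, 4 had no UMI of a receptor constant region either.

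The study sequenced unselected testis cells of 2 olive baboons and 2 rhesus monkeys in 6 libraries of 10x Genomics 3′ chemistry, to describe spermatogonia before puberty. All animals were untreated, and no genotype or treatment separated them. Libraries 1A and 1B came from baboon 1 and libraries 2A and 2B from rhesus monkey 2, while baboon 2 and rhesus monkey 1 had 1 library each, and baboon 2 alone was made with version 3 of the chemistry (version 2 in the others). A newborn animal and ages of 15, 20 and 26 months are stated, but the sources used here give them to opposite species, and no age was assigned to an animal. The tissue was rinsed after a short collagenase step meant to remove interstitial cells and was then digested with trypsin, and the part of this rinse in the number of lymphocytes was not tested. The libraries held 31074298 (baboon 1A), 16875294 (1B), 49803025 (baboon 2), 38106092 (rhesus 1), 19675453 (2A) and 18806225 UMIs (2B). The lymphocytes together held 230752 UMIs (baboon) and 139326 UMIs (rhesus).

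T cells recognize antigen through a receptor whose α and β (or γ and δ) chains sit in the membrane with the CD3 proteins and the CD247 ζ chain, and LCK, LAT and related proteins pass the signal on. CD8 T cells and NK cells kill target cells with perforin and granzymes, proteases held in granules on a serglycin scaffold, and NK cells read their targets through lectin-like receptors (the KLR genes) that signal through the adaptors TYROBP, HCST and FCER1G. In the testis, macrophages are the best known leukocytes, and lymphocytes are few and lie in the interstitium, outside the seminiferous tubules.

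Lymphocytes were found in 4 of the 6 libraries. They made up 12 of 12601 barcodes in baboon 1A (0.0952%, exact 95% Clopper-Pearson interval 0.0492 to 0.166), 14 of 6530 in 1B (0.214%, 0.117 to 0.359) and 39 of 9191 in baboon 2 (0.424%, 0.302 to 0.580). Rhesus monkey 1 had 56 of 18389 (0.305%, 0.230 to 0.395). Rhesus monkey 2 had none, with 0 of 8501 in 2A and 0 of 7954 in 2B, and the 0 of 16455 barcodes of this animal allow a share of up to 0.0182% by the floor of 3 counts (exact upper limit 0.0224%). These intervals and limits cover counting error only. The intervals of 1A and 1B, both from baboon 1, overlapped, and that of baboon 2 lay above that of 1A. The mean share per animal was 0.280% ± 0.204 for baboons and 0.152% ± 0.215 for rhesus monkeys (SD, n = 2 animals each), and the animals of each species lay farther apart than the means of the species. The species were not tested against each other, and an exact permutation test of 2 animals against 2 could not reach p under 0.05. Macrophage-rule barcodes (a UMI of at least 3 of the 6 macrophage genes and of fewer than 2 of the 8 markers) were present where lymphocytes were not, at 40 in 2A and 30 in 2B. They numbered 11 in 1A, 0 in 1B, 31 in baboon 2 and 110 in rhesus 1. Rhesus monkey 2 therefore held testicular macrophages by this rule and no barcode with even 2 of the 8 lymphocyte markers.

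**Figure D1:**
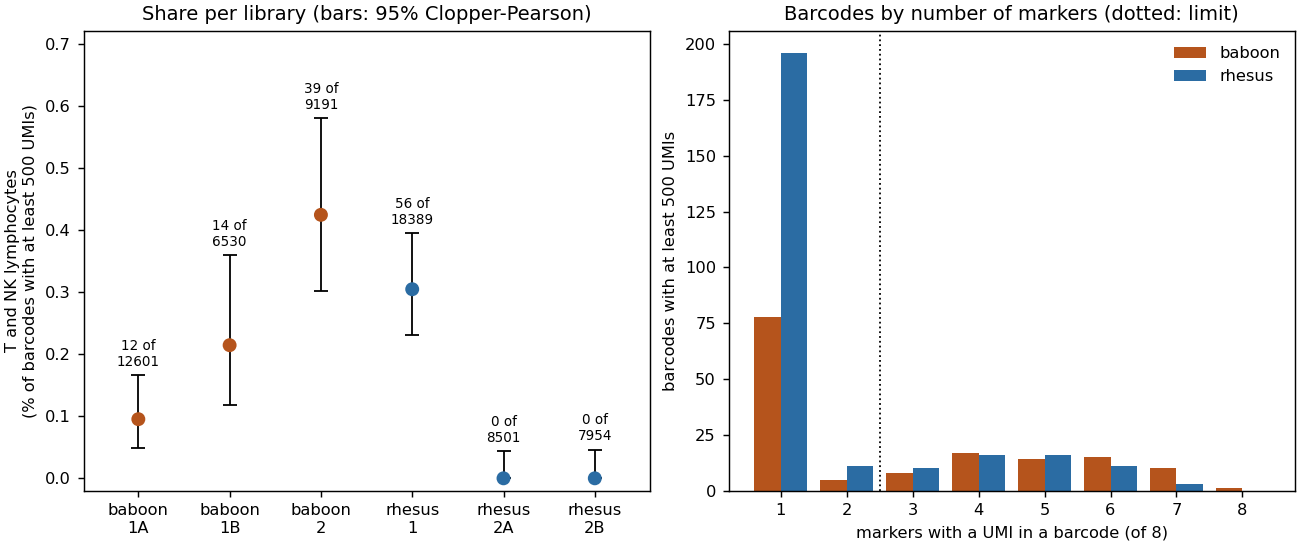
Left, share of barcodes with at least 500 UMIs that are T or NK lymphocytes (percent, linear axis) in each library, with exact 95% intervals and the counts written beside the points. Right, number of barcodes (axis labelled in the plot) by how many of the 8 markers had a UMI, in each species, the dotted line marking the limit of the rule. The lymphocytes were absent from rhesus 2A and 2B, and barcodes with 1 marker outnumbered those with 2.

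The number of markers separated the lymphocytes from the rest with few barcodes in between, which is a description, since the markers made the choice. In the baboon, 78 barcodes had a UMI of 1 marker and 5 had 2, while 8, 17, 14, 15, 10 and 1 had 3, 4, 5, 6, 7 and 8. Among rhesus barcodes, 196 had 1 marker (111 in monkey 1, 85 in monkey 2) and 11 had 2, followed by 10, 16, 16, 11 and 3 with 3 to 7. At the edge of the rule, a receptor constant-region gene (below) was found in 1 of the 5 baboon barcodes with 2 markers and in 7 of the 8 with 3. CD52 was found in 1 of 5 and 7 of 8 of these baboon barcodes, CD69 in 2 of 5 and 4 of 8, and PTPRC in 3 of 5 and 6 of 8. TRAC was found in 3 of 11 rhesus barcodes with 2 markers and in 4 of 10 with 3, CD52 in 10 of 11 and 8 of 10, CD69 in 8 of 11 and 8 of 10, and PTPRC in 5 of 11 and 7 of 10. The constant region and CD52 thus stepped up at the limit in the baboon, while the other pairs of values lay closer together. Without the limit on macrophage genes 1 further rhesus barcode would have entered (57).

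Levels of the 8 markers are given in CPM (UMIs of the gene over all UMIs of the lymphocytes of a library, scaled to the usual common total), in the order baboon 1A, 1B, baboon 2 and rhesus 1, with no test. CD3D was at 1318, 1105, 794 and 1292 CPM and NKG7, a granule membrane protein, at 1403, 884, 597 and 1845. CCL5, a chemokine of activated T and NK cells, was at 1573, 1346, 972 and 1845. CST7 (cystatin F, an inhibitor of granule proteases) was at 1105, 1044 and 794 in the baboon libraries and at 266 in rhesus 1. IL7R, the receptor subunit that keeps resting T cells alive, was the lowest of the 8 in the 4 libraries, at 42.5, 40.2, 121 and 165, and had a UMI in 10 of 65 baboon and 10 of 56 rhesus lymphocytes. CD3D had one in 57 and 52, NKG7 in 45 and 49, CCL5 in 41 and 46, and CST7 in 60 and 26. Of the macrophage genes, the baboon lymphocytes had 3 UMIs of CD14 and 0 of the other 5 genes, and the rhesus lymphocytes 2 of C1QB, 1 of CD163 and 0 of the other 3 found by symbol.

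The CD3 genes lie together, at chr12:16202012-16211759 (CD3G), chr12:16213612-16217238 (CD3D) and chr12:16238023-16249575 (CD3E) of Panubis1.0, and at chr14:111360597-111372178 (CD3E), chr14:111394605-111399738 (CD3D) and chr14:111399771-111409366 (CD3G) of Mmul_10. At least 1 of them had a UMI in 10 of 12 lymphocytes of 1A, 13 of 14 of 1B, 37 of 39 of baboon 2 and 54 of 56 of rhesus 1, and at least 2 of them in 49 baboon and 40 rhesus lymphocytes. The receptor chains, which the rule did not use, were present as well. In the baboon they carry no symbol, and 4 genes annotated as constant regions of receptor type were used, LOC101002206 (chr4:15760313-15964174) and LOC100999905 (chr4:15769709-15991477), which overlap each other next to EPHB6, and LOC101017262 (chr7:83886760-83960648) and LOC101017620 (chr7:83970280-84015408), next to DAD1. They had 284, 202, 101 and 25 UMIs, and reads of the overlapping pair cannot be told apart with certainty. A UMI of at least 1 of the 4 was found in 11 of 12, 13 of 14 and 39 of 39 baboon lymphocytes, among them all 60 with a CD3 gene. In the rhesus monkey, TRAC, the constant region of the α chain, was at 746 CPM in the lymphocytes and at 3.13, 1.94 and 0.980 CPM in the other barcodes of rhesus 1, 2A and 2B. It was found in 34 of 56 lymphocytes.

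CD8 transcripts outnumbered CD4 transcripts in the lymphocytes of both species. NKG7, CCL5 and CST7, genes of cytotoxic cells, are among the 8 markers, so the rule favours CD8 T cells and NK cells over CD4 T cells and this balance is partly set by it. With barcodes of 2 markers let in, the log2 fold change of CD4 in the rhesus monkey, which had no UMI of it under the rule, was 2.88 (edgeR adjusted p = 0.459). CD8A, the α chain of the CD8 co-receptor (chr14:87416365-87423402 in the baboon, chr13:19092978-19100027 in the rhesus monkey), was at 425, 402 and 197 CPM in the lymphocytes of 1A, 1B and baboon 2 and at 395 CPM in those of rhesus 1. In the other barcodes it stayed between 0.0799 and 0.515 CPM in the 6 libraries, so the groups did not overlap. CD8B, the β chain, was at 170, 281 and 299 CPM in the baboon lymphocytes. CD4, the co-receptor of helper T cells, had 5 UMIs in 5 baboon lymphocytes, all of baboon 2 (0, 0 and 31.8 CPM), and 0 in the rhesus lymphocytes, where macrophage-rule barcodes held 185 CPM in monkey 1 and 131 in monkey 2. By barcode, CD8A or CD8B was found in 7 of 12, 11 of 14 and 20 of 39 baboon lymphocytes (38 of 65) and CD8A in 30 of 56 rhesus lymphocytes, CD4 in 5 and 0, both in 1 baboon lymphocyte, and neither in 23 and 26. CD8A was found in 49.2% of the baboon and 53.6% of the rhesus lymphocytes, against 0.0132% and 0.0321% of Sertoli-rule barcodes (a UMI of at least 3 Sertoli genes), a type that lacks it. The median depth was 2441 UMIs in baboon and 2043.5 in rhesus lymphocytes, and 2542 and 1298 in Sertoli-rule barcodes. Thinned to 500 UMIs each, the shares with CD8A were 18.5% and 19.6%, so the barcodes with neither co-receptor cannot be read as lacking both at this depth. FOXP3, the factor of regulatory T cells, had no UMI in any lymphocyte, which allows a share of barcodes with a UMI of up to 4.62% (baboon) and 5.36% (rhesus) by the floor of 3 counts (exact upper limits 5.52% and 6.38%). MS4A1 (CD20), a B cell marker, had none either.

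**Figure D2:**
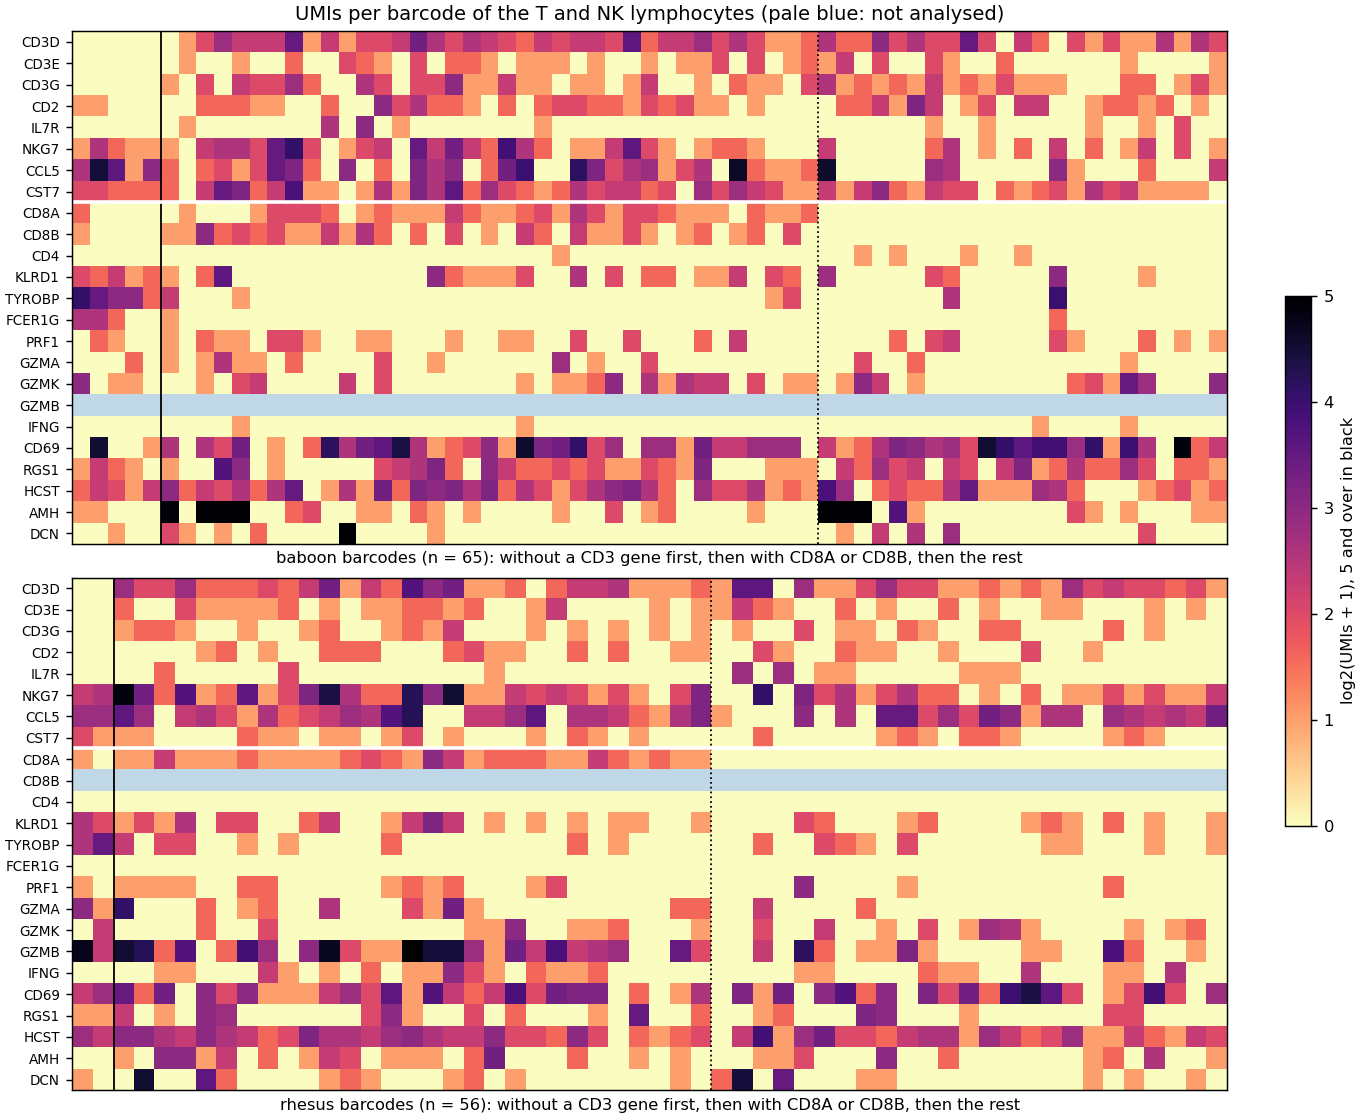
UMIs of 24 genes (rows) in each lymphocyte barcode (columns), coloured as log2(UMI + 1), for the 65 baboon barcodes above and the 56 rhesus barcodes below. Barcodes without a CD3 gene come first, then those with CD8A or CD8B, then the rest, the white line sets off the 8 markers of the rule, and pale blue marks genes not analysed in that species.

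The 7 lymphocytes without a CD3 gene came from 4 libraries, 2 from 1A, 1 from 1B, 2 from baboon 2 and 2 from rhesus 1. All 7 had UMIs of NKG7, CCL5 and CST7, which the rule favours, and all 7 also had UMIs of KLRD1 (CD94, the shared chain of NK lectin receptors) and TYROBP (DAP12, their signalling adaptor), which it did not use. TYROBP had 2, 7, 16, 10 and 7 UMIs in the 5 baboon barcodes, 42 of the 71 TYROBP UMIs of baboon lymphocytes, and was found in 6 of the 60 with a CD3 gene. The 2 rhesus barcodes had 5 and 10 TYROBP UMIs, and 17 of 54 rhesus lymphocytes with a CD3 gene had 32 in all. FCER1G, a second adaptor, was found in 3 of the 7, all baboon, and in 2 of 60 and 0 of 54 with a CD3 gene. IL7R had no UMI in the 7. CD69 was found in 4 of them. KLRD1 was no mark of these barcodes alone, since 23 of 60 baboon and 28 of 54 rhesus lymphocytes with a CD3 gene had it. In 3 of the 7, all baboon, a receptor constant-region gene had 1, 8 or 11 UMIs, and 2 baboon and 2 rhesus barcodes had no UMI of CD3 or of a constant region. In the rhesus monkey TRAC was the one constant region used, and it had a UMI in only 34 of the 54 lymphocytes with a CD3 gene.

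To find which genes the rule did not use also set the lymphocytes apart, UMIs were summed per animal over the lymphocytes and over the other barcodes and tested in each species with edgeR's quasi-likelihood test, without the 14 genes of the rule. In the baboon (2 sums against 2), 364 genes were higher in lymphocytes (2.36% of 15405 tested) and 53 lower (0.344%), 417 or 2.71% in all. With the animal as a block, 413 were higher and 332 lower. Among rhesus genes, 314 were higher (2.18% of 14371) and 89 lower (0.619%), 2.80% in all, and without TMM scaling 322 and 195. All rhesus lymphocytes came from 1 animal, so that fit set 1 sum against 2 and assumed that the lone sum varied like the others. With the rhesus libraries as samples, 75 genes were higher and 2 lower. The filter on low counts let 437 baboon and 41 rhesus genes into the test through the lymphocyte sums alone, the other barcodes being too low in them. Such a gene had to be high in lymphocytes to be tested, and 124 of the 364 and 16 of the 314 higher genes were of this kind. Of the genes named below, they were in the baboon PTPRCAP, ICOS, CD8A, TIGIT, PDCD1, PRF1, GZMK, GZMA, CTSW, GNLY, CD69, RGS1, ITGAL, CXCR3, KLRD1, KLRB1, IL2RB, GPR171, ZNF831 and the genes given by place, and in the rhesus monkey PRF1, GZMA, IFNG, XCL1, IL2RB and KLRK1. Their fold changes, and the counts per list, are a description of size, and the number of tested genes of this kind is given beside the main lists. Over all genes tested the median log2 fold change was −0.47 for the baboon and −1.01 for the rhesus monkey, and 3245 and 5510 of these genes had no UMI in the lymphocytes. Genes without a UMI in the lymphocytes entered the test through the other barcodes alone and could not come out higher. Whether more cells with a transcript or more transcript per cell raised a sum cannot be told apart in it, and shares of barcodes are given where they help.

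Genes of T cell receptor signalling were among those higher in lymphocytes. Of the list of 30, 22 were found by symbol in each species, and 17 could be tested in the baboon, of which 16 rose (median log2 fold change 7.09), and 11 in the rhesus monkey, all of which rose (7.78), against the medians over all genes above. In the baboon 12 of the 17 entered through the lymphocytes alone, and 4 of the other 5 rose. In the rhesus monkey none of the 11 did. PTPRCAP, a partner of CD45 in lymphocytes, was at 893, 663 and 267 CPM in the lymphocytes of 1A, 1B and baboon 2 (log2 fold change 10.09 ± 0.79 SE) and at 811 CPM in those of rhesus 1 (8.96 ± 0.69, edgeR adjusted p = 2.52e-10). CD247, the ζ chain, was at 638, 241 and 254 CPM against 3.15, 3.29 and 3.21 in the other barcodes of the baboon (6.48 ± 0.46), and was listed with no UMI in lymphocytes or other barcodes of the rhesus monkey. LAT, the scaffold of the receptor signal, was at 383, 201 and 254 CPM in the baboon (6.67). LCK, the kinase that starts the signal, was at 316 CPM in the rhesus lymphocytes, in 33 of 56 (8.96 ± 0.66). TRAC rose by 8.31 ± 0.70. ICOS, an activation-induced costimulator, was at 298, 60.3 and 324 CPM in the baboon lymphocytes and had 1 UMI in all other baboon barcodes, a fold ratio of 22102 with a counting interval of 3821 to 887101, and had 0 UMIs in the rhesus lymphocytes. Among other barcodes, a UMI of at least 3 of the genes on this list was found in 8 (1A), 6 (1B), 22 (baboon 2), 11 (rhesus 1), 6 (2A) and 2 (2B), and in 12, 13, 36 and 40 lymphocytes of the libraries that had them.

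Of 16 genes that mark T cell subsets, 6 of 10 tested rose in each species (medians 6.09 and 4.55; 4 baboon and 1 rhesus gene entered through the lymphocytes alone, and of the rest 2 of 6 and 5 of 9 rose). CD8A rose by 11.24 ± 0.63 in the baboon and by 9.99 ± 0.67 in the rhesus monkey (edgeR adjusted p = 3.11e-11 in the latter), and CD8B by 7.80 ± 0.50 in the baboon. Of the receptors that restrain T cells, TIGIT rose by 7.57 and 8.14, PDCD1 by 9.10 and 5.54 and LAG3 by 5.36 and 3.56 in the baboon and the rhesus monkey, though TIGIT and PDCD1 had only 9 and 14 UMIs in the baboon. CTLA4, another of them, was tested in neither, with 4 UMIs in 3 baboon lymphocytes and 0 in the rhesus lymphocytes. CD40LG, a signal that activated helper T cells give to B cells and macrophages, had 15 UMIs in 7 baboon lymphocytes, all of baboon 2, and 0 in the other baboon barcodes (at least 1812-fold higher against a floor of 3 UMIs over the group). It had 1 UMI in the rhesus lymphocytes and 0 in the other rhesus barcodes, and was tested in neither species.

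**Figure D3:**
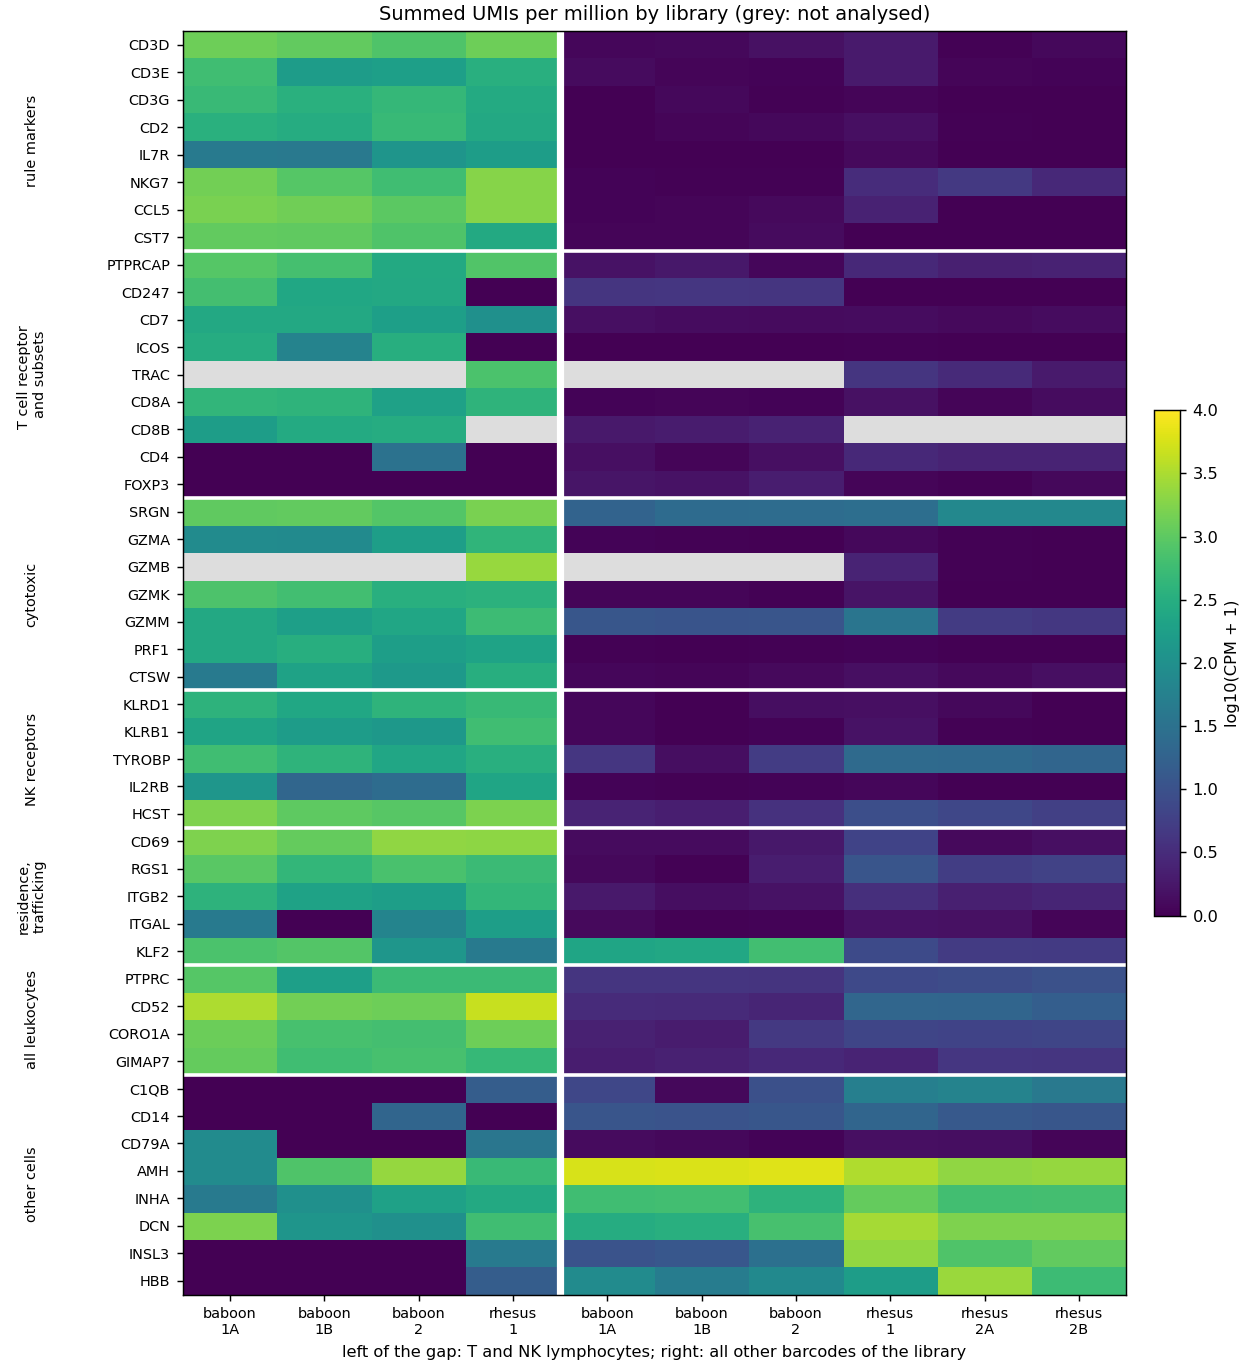
Expression of 46 genes in 7 groups (rows) as log10(CPM + 1), in the lymphocytes of the 4 libraries that had them (left) and in the other barcodes of all 6 libraries (right), with grey for genes not analysed in that species. The T cell, cytotoxic and leukocyte rows were mostly high on the left and lower on the right, and the rows of other testis cells were high on the right.

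Genes of the killing machinery were also higher, in barcodes chosen partly on cytotoxic genes (NKG7, CCL5 and CST7). Of the cytotoxic list of 16, 11 could be tested in the rhesus monkey and rose (median 10.12), 4 of them entering through the lymphocytes alone. In the baboon 8 could be tested and 7 rose (8.44), 5 of the 8 entering in that way. PRF1 (perforin, chr11:67057060-67063109 in the baboon, chr9:67182693-67188420 in the rhesus monkey) was at 255, 321 and 172 CPM in the lymphocytes of 1A, 1B and baboon 2 and at 208 CPM in those of rhesus 1. It had 3 UMIs in all other baboon barcodes and 3 in all other rhesus barcodes (fold ratio 5918, counting interval 1910 to 29683, and 3806, 1180 to 19525), and a UMI of it was found in 26 of 65 and 16 of 56 lymphocytes. GZMK, the granzyme of early memory CD8 T cells (chr5:49568265-49578180 and chr6:53329124-53338866), was at 765, 623 and 337 CPM in the baboon, in 31 of 65 lymphocytes (12.31 ± 0.71), and at 366 CPM in rhesus 1, in 21 of 56 (10.12 ± 0.88). The groups did not overlap for PRF1 or GZMK in any library. GZMA was at 85.0, 80.3 and 172 CPM and at 416 CPM, in 15 lymphocytes of each species (11.19 ± 0.73 and 11.60 ± 0.76).

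GZMB, the granzyme of mature killer cells, was the most abundant of the granzymes measured in the rhesus lymphocytes, at 2376 CPM against 1.51, 0.0694 and 0 CPM in the other barcodes of rhesus 1, 2A and 2B (11.49 ± 1.14, edgeR adjusted p = 2.45e-08). It was found in 39 of 56, with a lowest, median and highest count of 0, 2 and 33 UMIs. With libraries as samples its adjusted p was 0.0718, and that of GZMK was 0.0699 (0.385 with DESeq2). GZMB was not analysed in the baboon. IFNG, the interferon that T and NK cells secrete, was at 337 CPM in rhesus 1, in 24 of 56 lymphocytes (10.65 ± 0.77), and had 4 UMIs in 4 baboon lymphocytes. XCL1, a chemokine that draws dendritic cells, was at 301 CPM (10.93 ± 0.82). CCL3 was at 833 CPM against 17.3, 8.54 and 17.4 (5.79 ± 0.62). SRGN, the granule scaffold, was at 1063, 1105 and 864 CPM in the baboon, in 63 of 65 lymphocytes (5.33 ± 0.45), and at 1550 CPM in the rhesus monkey (5.07 ± 0.68). CTSW, a protease of cytotoxic cells, rose by 9.39 ± 0.57 and 9.59 ± 0.64. GNLY (granulysin), an antimicrobial granule protein, had 3 UMIs in 1 baboon lymphocyte (fold ratio 31.1, counting interval 6.11 to 98.5, log2 fold change 4.76, adjusted p = 0.0552) and did not pass. A perforin, granzyme or GNLY UMI was found in 48 baboon and 44 rhesus lymphocytes, a number that the rule favours. These counts rest on different genes, since GZMB was not analysed in the baboon and GNLY was not analysed in the rhesus monkey.

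Of 18 genes of residence and migration, 10 of 12 tested rose in each species (medians 8.15 and 6.45), 7 of the 12 baboon genes entering through the lymphocytes alone (3 of the other 5 rose) and none of the rhesus genes. CD69 had the most UMIs. The integrins that mark resident T cells in epithelia and other tissues gave no call, and the chemokine receptor that marks them (CXCR6) was not tested. ITGAE (CD103) was at 42.5, 0 and 50.8 CPM in the lymphocytes of 1A, 1B and baboon 2 against 5.15, 3.87 and 27.6 in the other barcodes (1.16 ± 0.97, edgeR adjusted p = 0.665) and at 21.5 CPM in rhesus 1 against 30.7, 46.0 and 50.6 (−0.81 ± 0.80, adjusted p = 0.773). ITGA1 (CD49a) had 6 UMIs in 5 baboon and 4 in 3 rhesus lymphocytes (1.29 and 1.43, adjusted p = 0.577 and 0.605). CXCR6 had 5 UMIs in 5 baboon lymphocytes and 2 in all other baboon barcodes (21.7 against 0.0239 CPM). It had 0 in the rhesus lymphocytes and 0 in the other rhesus barcodes. CD69, which keeps lymphocytes in tissue and is induced early on activation (chr9:9204801-9211584 and chr11:9924895-9931658), was at 1700, 1145 and 2160 CPM in the lymphocytes of 1A, 1B and baboon 2, and at 0.319, 0.286 and 0.807 CPM in the other barcodes. Its log2 fold change was 11.52 ± 0.73, and 56 of 65 lymphocytes had a UMI. In rhesus 1 it was at 2089 CPM, against 5.37, 0.278 and 0.452 CPM in the other barcodes of rhesus 1, 2A and 2B (9.40 ± 1.05, edgeR adjusted p = 2.47e-07, 0.105 with libraries as samples), and 48 of 56 had a UMI. CD69 was thus present in most lymphocytes and was not carried by a few, with median counts of 3.5, 3.5, 6 and 4 UMIs a barcode and highest counts of 8, 16, 28 and 20. Of Sertoli-rule barcodes 0.0265% and 0.148% had a UMI. RGS1, a regulator of chemokine receptor signals found in resident T cells, was at 935, 442 and 718 CPM and at 531 CPM (9.98 ± 0.77 and 6.13 ± 0.63). ITGB2 and ITGAL, the chains of the LFA-1 integrin, rose by 8.22 and 8.08 in the baboon and by 7.79 and 8.54 in the rhesus monkey. CXCR3, a receptor for interferon-induced chemokines, had 17 UMIs in 13 baboon lymphocytes against 1 UMI in the other barcodes (11.89 ± 1.18, fold ratio 6159, counting interval 965 to 257417). CXCR4 had 31 UMIs in 14 rhesus lymphocytes and 504 in the other rhesus barcodes, and was barely counted in the baboon, with 1 UMI in the lymphocytes and 2 in all other barcodes.

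Of the genes of naive and circulating T cells, TCF7 alone of 5 tested rose in the baboon (4.24, edgeR adjusted p = 0.0235, 9 UMIs). That is 20% of those tested, against 2.36% higher over all baboon genes tested. In the rhesus monkey LTB alone of 8 tested rose, by 8.80 ± 0.63. The medians of this list were 2.82 and −2.17 (2.87 with the 4 rhesus genes at 0 UMIs set to the floor of 3). LTB, a lymphotoxin chain made by resting lymphocytes, was at 467 CPM in 33 of 56 rhesus lymphocytes. KLF2, the factor that keeps naive T cells in circulation, was at 723, 864 and 127 CPM in the baboon lymphocytes and at 226, 245 and 604 CPM in the other barcodes (0.04 ± 0.67, adjusted p = 0.983), so that its direction differed between the baboons. It was at 43.1 CPM in the rhesus lymphocytes against 6.88, 4.03 and 3.77 (2.98, adjusted p = 0.0638). CCR7, the receptor that guides T cells to lymph nodes, had no UMI in the lymphocytes of either species.

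Receptors and adaptors of NK cells rose in 9 of 11 (baboon, median 6.63) and 6 of 9 (rhesus, 7.90) genes tested, of which 5 and 2 entered through the lymphocytes alone, while 4 of the remaining 6 and 4 of the remaining 7 rose. KLRD1 was at 383, 241 and 394 CPM in the baboon, in 28 of 65 lymphocytes (10.28 ± 0.66), and at 495 CPM in rhesus 1, in 30 of 56 (10.68 ± 0.76). KLRB1 (CD161) rose by 10.30 ± 0.59 and 10.94 ± 0.86, and was at 603 CPM in rhesus 1. KLRK1 (NKG2D), an activating receptor, was at 158 CPM in rhesus 1 (10.42 ± 0.74), while in the baboon its log2 fold change was 2.40 ± 1.53 (adjusted p = 0.569). HCST (DAP10), the adaptor of NKG2D, was among the most widespread genes, with a UMI in 59 of 65 and 54 of 56 lymphocytes. Its level was 1658, 1024 and 927 CPM in the baboon and 1644 CPM in rhesus 1 (8.95 ± 0.58 and 7.90 ± 0.75). TYROBP was at 595, 402 and 235 CPM and at 337 CPM (6.63 ± 0.53 and 3.97 ± 0.53). IL2RB, the β chain of the receptor for interleukins 2 and 15, rose by 8.59 ± 0.83 and 11.15 ± 0.80. Of 15 genes for other cytokine receptors and their signals, 4 of 9 rose in the baboon and 2 of 10 in the rhesus monkey (medians 3.07 and 2.27). In the baboon 1 of the 9 entered through the lymphocytes alone, and 3 of the other 8 rose. IL2RG, the common γ chain, rose in both species (4.63 and 6.15).

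Genes shared by leukocytes rose in 22 of 23 (median 7.16) and 23 of 25 (6.39) cases, of which 9 and 1 entered through the lymphocytes alone, while 13 of the remaining 14 and 22 of the remaining 24 rose. CD52, a surface glycopeptide of lymphocytes, was at 3188, 1426 and 1315 CPM in the baboon, in 62 of 65 lymphocytes (9.69 ± 0.60), and at 4536 CPM in the rhesus monkey, in 53 of 56 (7.96 ± 0.86). PTPRC (CD45), the leukocyte phosphatase, was at 893, 181 and 527 CPM and at 524 CPM (7.16 ± 0.47 and 6.21 ± 0.57). CD74, the invariant chain of MHC class II, passed in neither species. It was at 213, 2169 and 76.2 CPM in the baboon lymphocytes against 129, 141 and 40.9 CPM (3.03 ± 0.94, edgeR adjusted p = 0.144) and at 194 CPM against 299, 187 and 216 in the rhesus monkey (−0.38 ± 0.64, adjusted p = 0.895), and 86 of its 108 UMIs in 1B lay in 1 barcode. The GIMAP GTPases, which support lymphocyte survival, rose in 6 of 6 and 5 of 5 (6.13 and 5.15). In the baboon 1 of the 6 GIMAP genes entered through the lymphocytes alone, and the other 5 rose. GIMAP7 was at 1148, 603 and 673 CPM and at 474 CPM, in 56 of 65 and 35 of 56 lymphocytes (8.81 ± 0.53 and 7.73 ± 0.61).

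Of 15 genes of actin and motility, 5 of 15 tested baboon genes rose (median 1.18), as did 6 of 13 tested rhesus genes (2.08). Of those tested, 2 baboon genes and 1 rhesus gene entered through the lymphocytes alone. Of the remaining 13 baboon and 12 rhesus genes, 3 and 5 rose. TMSB4X, the actin-binding thymosin, was the most abundant gene of this list in the baboon lymphocytes, at 20400, 16609 and 6606 CPM against 598, 691 and 434 (4.41 ± 0.61, edgeR adjusted p = 0.000619). PFN1 (profilin) rose by 2.12 ± 0.41 and 2.93 ± 0.68, and ACTB had log2 fold changes of 0.95 (adjusted p = 0.428) and 2.08 (0.324). In antigen processing, 4 of 10 rose in the baboon and 3 of 11 in the rhesus monkey (medians 1.19 and 1.64, or 2.19 with the rhesus gene without a UMI at the floor). The immunoproteasome subunits PSMB8 and PSMB9 rose in both species, PSMB9 by 3.88 ± 0.40 and 3.81 ± 0.65. B2M, the light chain of MHC class I, was at 6843, 8214 and 1823 CPM in the baboon lymphocytes (3.03 ± 0.74, adjusted p = 0.0491) and at 20140 CPM in the rhesus lymphocytes (2.52 ± 1.02, adjusted p = 0.255).

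Among 15 interferon-response genes, ISG20 (6.24 and 5.77) and IRF1 (237 CPM in the rhesus lymphocytes, 3.19 ± 0.60) rose in both species and no other did (15 and 14 tested, medians 0.59 and 0.22). Of the immediate early and stress genes, which enzymatic digestion can induce, 5 of 22 rose in the baboon (DUSP2, TNFAIP3, ZFP36, BTG1, KLF6) and 4 of 23 in the rhesus monkey (DUSP2, NR4A2, TNFAIP3, KLF6), with medians of 0.66 and 0.63. FOS had a log2 fold change of −0.09 in the baboon. The direction of the summed list differed between the baboons. It was at 15343 and 17312 CPM in the lymphocytes of 1A and 1B against 7828 and 7709 in the other barcodes. In baboon 2 the list was at 17506 CPM against 23814. In rhesus 1 it was at 12431 CPM against 9834, 10598 and 10964 in the other barcodes of rhesus 1, 2A and 2B. Since CD69 is also induced early on activation, the part of the digestion in its level was not tested. Of survival genes, BCL2A1 (6.93 and 5.76) and TNFRSF1B (4.54 and 4.18) rose in both and CASP8 in the rhesus monkey, among 9 and 8 tested (medians 2.21 and 1.91, or 2.33 and 3.09 with genes without a UMI at the floor). Of 10 cell cycle genes tested in each, 0 and 1 rose (0.83 and 0.96). MKI67 had 7 UMIs in 1 lymphocyte of 1B, which also had 17 of TOP2A, and 6 UMIs in 3 rhesus lymphocytes (4.63, adjusted p = 0.0970, and 4.02, adjusted p = 0.0150).

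Markers of other testis cells were present in the lymphocytes, some above and some below their level in the other barcodes. The Sertoli list was at 213, 1205 and 2814 CPM in the lymphocytes of 1A, 1B and baboon 2 against 7724, 7854 and 7692 CPM in the other barcodes, and at 1335 CPM in those of rhesus 1 against 6954 (rhesus 1), 5486 (2A) and 5820 (2B). AMH, the Sertoli hormone, was its most abundant gene (411 of 508 UMIs in the baboon, 71 of 186 in the rhesus monkey). CITED1 in the baboon and WT1, FSHR, DEFB119 and CST9L in the rhesus monkey had no UMI. AMH was at 85.0, 783 and 2350 CPM against 5820, 5930 and 6417 (−2.15 ± 0.60, edgeR adjusted p = 0.0950) and at 510 CPM against 3311, 2205 and 2341 (−2.46, adjusted p = 0.208). In baboon 2, 353 of the 370 AMH UMIs lay in 7 of the 39 lymphocytes, each with at least 10 (median depth 6299 UMIs), and the other lymphocytes were at 174 CPM. In 1B, 29 of 39 lay in 1 barcode, and no rhesus lymphocyte had 10. A UMI of AMH was found in 43.1% and 46.4% of lymphocytes, and in 99.7% and 96.4% of Sertoli-rule barcodes. AMH is one of the genes of the Sertoli rule, so the latter shares are largely set by that rule. Of the list, SOX9 and GATM fell among 9 tested in the baboon and 0 of 12 in the rhesus monkey (medians −1.99 and −2.57, or −2.04 at the floor).

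Stromal genes were at 2168, 904 and 432 CPM in the baboon lymphocytes against 747, 809 and 1926, and at 1120 CPM against 5046, 4842 and 4928 in the rhesus monkey, led by DCN, with PDGFRA at 0 in the baboon. Of them 0 of 10 and 1 of 9 (DLK1, −4.14 ± 0.90) fell (medians −0.68 and −1.97). Genes of Leydig cells were at 0, 100 and 63.5 CPM against 81.0, 79.0 and 121, with INSL3 at 0, and at 100 CPM against 2437, 882 and 1210. Pericyte and muscle genes were at 0, 1105 and 38.1 CPM against 158, 168 and 121 (RGS5 52 of 61 UMIs, ACTA2 at 0) and at 144 CPM against 444, 571 and 630. Endothelial genes were at 0, 1125 and 19.1 CPM against 67.9, 89.1 and 107 (VWF 17 of 59 UMIs, CDH5 and KDR at 0) and at 86.1 CPM against 59.1, 434 and 426. In the rhesus lymphocytes PECAM1 had 8 of the 12 endothelial UMIs, and CDH5, VWF, KDR, TEK and CLDN5 had none. Germ cell genes were at 0, 0 and 286 CPM against 171, 172 and 185, and at 43.1 CPM against 55.5, 23.5 and 22.2. The lymphocytes thus lay above the other barcodes of their own library for pericyte and endothelial genes in 1B, stromal genes in 1A and 1B, Leydig genes in 1B, germ cell genes in baboon 2 and endothelial genes in rhesus 1. Apart from the last, which rested mostly on PECAM1, each of these rested on 1 barcode. Without the barcode with the most UMIs of the list, stromal genes were at 642 CPM in 1A (38 of 51 UMIs lay in a barcode of 3284 UMIs) and 205 in 1B, Leydig genes at 34.1 and pericyte and endothelial genes at 0 in 1B, and germ cell genes at 71.7 in baboon 2, all below the other barcodes, while endothelial genes in rhesus 1 were at 77.8. A single barcode of 20464 UMIs in 1B held 51 of the RGS5 UMIs, all 17 of VWF, 29 of AMH and 86 of CD74, beside 4 of the 8 markers. A barcode of 17974 UMIs in baboon 2 held 35 germ cell UMIs and 3 markers. In rhesus 1, a barcode of 10872 UMIs held all 6 germ cell UMIs of the lymphocytes and 3 markers. This rhesus barcode had no UMI of CD52, PTPRC, CD69, HCST or TRAC. Lymphocytes with UMIs of at least 3 genes of a Sertoli, stromal, endothelial, pericyte or germ cell list numbered 2, 1, 11 and 19, and without them 449 genes were lower in the baboon. The part of doublets or of free RNA in these levels was not tested.

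Of other blood cells, little was found. The macrophage list outside the rule had 3 UMIs in the baboon lymphocytes (15 of 17 genes at 0, SPI1 with 2 the highest, 42.5, 0 and 12.7 CPM against 8.63, 6.16 and 13) and 4 in the rhesus lymphocytes (14 of 18 genes at 0, 28.7 CPM against 83.5, 140 and 179). Of this list, 0 of 4 and 1 of 14 genes tested passed, LYZ, which was lower in the rhesus lymphocytes. The list of B and plasma cells had 5 and 12 UMIs, with MS4A1 at 0 in both. CD79A, a B cell receptor chain, was its most abundant gene, with 2 UMIs in 1 baboon lymphocyte, not tested, and 5 UMIs in 5 rhesus lymphocytes (6.59 ± 1.40, adjusted p = 0.00451, and 0.0536 without 2A or 0.0534 without 2B). Haemoglobin HBB had 0 UMIs in the baboon lymphocytes against 85.3, 46.1 and 78.2 CPM in the other barcodes (edgeR adjusted p = 0.00619, at least 5.77-fold lower against the floor of 3 UMIs) and 2 UMIs in the rhesus lymphocytes against 169, 2468 and 547 CPM. Mast cell genes had 1 UMI in each species, and glial genes 0.

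The genes lowest in the lymphocytes, among those with at least 100 CPM in the other barcodes of both animals, were in the baboon GNG7 (−4.21 ± 0.72, 2 UMIs), LGR4 (−3.32 ± 0.70, 3 UMIs), MYO6 (−3.07), ALDH1A1 (−2.98), APOC1 (−2.84), LOC100997459 (−2.83), KRT8 (−2.63), SOX9 (−2.62 ± 0.51), TSEN34 (−2.56) and ACSM3 (−2.56), with edgeR adjusted p values from 0.00397 to 0.0261. SOX9, the factor that makes Sertoli cells, was at 85.0, 20.1 and 50.8 CPM in the lymphocytes and at 321, 333 and 212 CPM in the other barcodes, with no overlap. In the rhesus monkey, TF (transferrin), WFDC2 and CCN1 had no UMI in the lymphocytes, at least 9.00-fold, 5.93-fold and 5.14-fold lower, and HBB (−5.73), MFAP4 (−5.38), INSL3 (−5.24 ± 1.12), EPHX1 (−4.51), PGRMC1 (−4.49) and APOD (−4.18) followed. For genes with 1 to 3 UMIs in the lymphocytes, the counting interval of the ratio of lymphocytes to other barcodes reached at most 0.323 in the baboon (LGR4) and 0.251 in the rhesus monkey (EPHX1). INSL3, the Leydig cell hormone, was at 43.1 CPM in the lymphocytes against 2228, 785 and 1101 CPM in rhesus 1, 2A and 2B (adjusted p = 0.00472). Of these genes HBB alone also passed in the other species. With libraries as samples PGRMC1 alone of these 9 rhesus genes still passed, and PGRMC1 did not pass with DESeq2.

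The same genes were compared by symbol across species, in fits that share no animals. Of 10551 symbols tested in both, 246 were higher in baboon and 248 in rhesus lymphocytes, and 173 were higher in both, 70.3% of the baboon and 69.8% of the rhesus genes. Of the 173, 66 entered a test through the lymphocytes alone in at least 1 species. Among the 10349 remaining symbols 171 and 174 were higher and 107 in both, 62.6% and 61.5%. Of the lower genes, 45 and 80, 4 were lower in both (8.89% and 5%), HBB, RHOBTB3, CDC42EP4 and TCEAL5, named after their values were seen. No gene was called in opposite directions. The largest mean changes among the 173 were those of PRF1, GZMA, GZMK, KLRB1, CD8A, KLRD1, CD69, IL2RB, PTPRCAP and CTSW, all of them known from T or NK cells, and in the baboon all 10 had entered the test through the lymphocytes alone. Of the 173, 74 were on one of the lists and 99 on none.

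**Figure D4:**
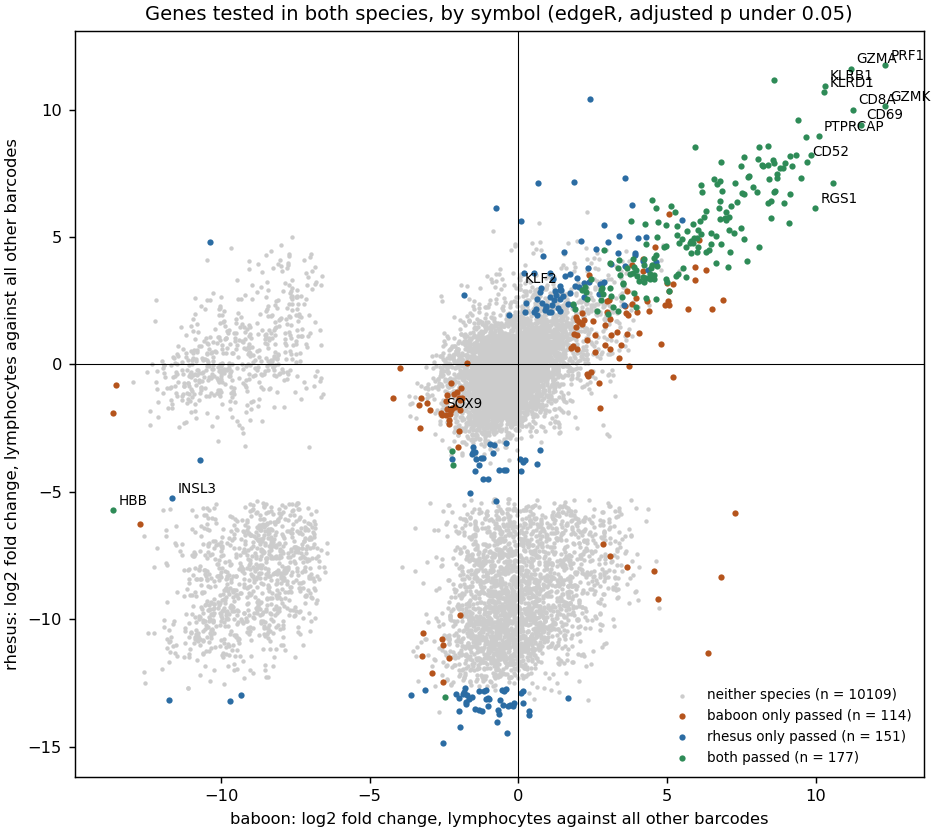
Log2 fold change of lymphocytes against other barcodes for 10551 gene symbols tested in both species (baboon on the x axis, rhesus monkey on the y axis), by the species in which the gene passed. Neither passed for 10109, the baboon alone for 114, the rhesus monkey alone for 151, and both for 177, of which 173 were higher in both, and the clouds below about −5 are genes without a UMI in the lymphocytes, whose fitted values depend on the prior count.

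Some of the strongest baboon genes carry no symbol and are given by place. LOC101000503 (chr7:81849460-81852795) and LOC101000149 (chr7:81880019-81912692), protein-coding genes between STXBP6 and SDR39U1, had 275 UMIs in 28 lymphocytes and 132 in 30 (12.18 ± 0.64 and 11.85 ± 0.59). LOC103882891 (chr4:108024236-108150691), between STARD3NL and AMPH, had 266 UMIs in 50 lymphocytes (11.85 ± 0.68), more barcodes than any granzyme. LOC101013736 (chr16:56822046-56849748), between SIRPA and SIRPB1, had 31 UMIs in 23 lymphocytes against 1 in the other barcodes (12.73 ± 0.78, counting interval of the fold ratio from 1872). A long noncoding RNA, LOC108583909 (chrX:18222325-18225503), next to CD40LG, had 16 UMIs in 10 lymphocytes (11.64 ± 1.34). Of the constant-region genes, LOC100999905 rose by 12.18, LOC101002206 by 11.40, LOC101017620 by 10.37 and LOC101017262 by 9.63. GPR171 and ZNF831, both known from T cells, rose by 11.22 ± 1.13 and 11.87 ± 1.18. They had 2 and 1 UMIs in the other barcodes, and the counting intervals of their fold ratios began at 781 and 965. A rhesus gene, listed as ENSMMUG00000058581 without a symbol, had 204 UMIs in 45 of 56 lymphocytes (10.86 ± 1.12, adjusted p = 0.406 with DESeq2).

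To separate what marks lymphocytes from what marks any leukocyte, the lymphocytes were also set against the macrophage-rule barcodes, 42 of the baboon and 180 of the rhesus monkey. These were chosen on expression as well, and the 14 genes of both rules were left out. In the baboon 37 genes were higher in lymphocytes (2.96% of 1252) and 76 lower (6.07%), 9.03% in all. The counts were 78 and 124 with the animal as a block, and 6 and 21 without barcodes above the 95th percentile of UMIs. Among rhesus genes 105 were higher (2.90% of 3617) and 188 lower (5.20%), 8.10% in all, and 0 and 0 when library 2A was left out, where 276 genes had an unadjusted p under 0.05 in edgeR's test. Of the genes higher than in all other barcodes, 110 baboon and 227 rhesus genes could be tested here. Of them 37 and 83 were also higher than in macrophages, 4 and 3 lower, and 69 and 141 not called.

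Genes of the T cell receptor and of killing were again among the higher ones, 5 and 5 of the receptor list and 5 and 9 of the cytotoxic list in the baboon and the rhesus monkey. The filter set these counts. All 5 and 6 tested genes of the receptor list, and all cytotoxic genes that rose, were too low in macrophages to be tested without the lymphocytes, as were 32 of the 37 and 66 of the 105 higher genes in all. CD8A was at 409 and 197 CPM in the lymphocytes of baboons 1 and 2 and had no UMI in macrophages of either. GZMB at 2376 CPM and TRAC at 746 CPM in the rhesus lymphocytes also stood against 0 UMIs in the macrophages of both monkeys. CD69 was at 1323 and 2160 CPM against 134 and 35.1 in the macrophages of baboons 1 and 2 (4.61 ± 0.74) and at 2089 CPM against 125 and 20.4 in the rhesus monkeys (4.76 ± 0.57, edgeR adjusted p = 1.69e-14). CD52 was higher by 3.76 ± 0.59 and 2.19 ± 0.42, CORO1A by 2.76 and 2.95, HCST by 2.46 and 2.82, GIMAP7 by 2.10 and 3.88, and PTPRC by 1.87 and 2.00. Of these, CD8A, CD69, CD52 and CORO1A in the baboon and GZMB, TRAC and GIMAP7 in the rhesus monkey also entered through the lymphocytes alone, and their values describe size only. SRGN was alike in level, 1091 and 864 CPM against 1373 and 984 in the baboon (−0.24 ± 0.45, adjusted p = 0.974) and 1550 against 1452 and 1438 in the rhesus monkey (0.04 ± 0.47, adjusted p = 0.993), and did not pass.

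Lower in lymphocytes than in macrophages were CD74 in the rhesus monkey, FCER1G in both species and most tested genes of the macrophage list. The antigen-processing list gave 0 of 6 calls in the baboon and 1 of 8 in the rhesus monkey, PSMB9, which was higher in lymphocytes (medians 1.07 and 0.59, against 0.04 and −0.05 over all genes tested). CD74 was at 194 CPM in the rhesus lymphocytes against 18953 and 7342 CPM in the macrophages of monkeys 1 and 2 (−6.17 ± 0.46, edgeR adjusted p = 1.81e-37), and at 1541 and 76.2 CPM against 19818 and 7354 in the baboons (−4.02 ± 1.33, adjusted p = 0.152). TYROBP was at 464 and 235 CPM against 1808 and 1511 in the baboons (−2.22 ± 0.53, adjusted p = 0.0505) and at 337 CPM against 1540 and 1879 in the rhesus monkeys (−2.40 ± 0.56, adjusted p = 0.00052). FCER1G was at 81.8 and 57.2 CPM against 2243 and 2518 (−5.08 ± 0.52, adjusted p = 0.0106), and had 0 UMIs in the rhesus lymphocytes against 143 and 147 CPM (adjusted p = 3.41e-05). The levels of both adaptors in macrophages lay above those in lymphocytes in each of the 3 animals that had lymphocytes. In the macrophage list outside the rule, 4 of the 6 baboon and 9 of the 12 rhesus genes tested had no UMI in the lymphocytes. These genes, and FCER1G in the rhesus monkey, could be tested only through the macrophage sums. The filter thus set their direction, and their values describe size only. Of the macrophage list outside the rule, 6 of 6 tested were lower in the baboon lymphocytes (median −4.70 with genes without a UMI at the floor) and 11 of 12 in the rhesus lymphocytes (−4.06), among them MRC1 and CD68 in both. Of interferon genes, MX1 (−3.40), MX2 and IFI6 (−1.85, adjusted p = 0.0357) were lower and IRF1 higher in the rhesus lymphocytes, and 0 of 5 passed in the baboon. The Sertoli list gave no call, with 3 and 6 genes tested (medians −0.78 and −0.74).

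**Figure D5:**
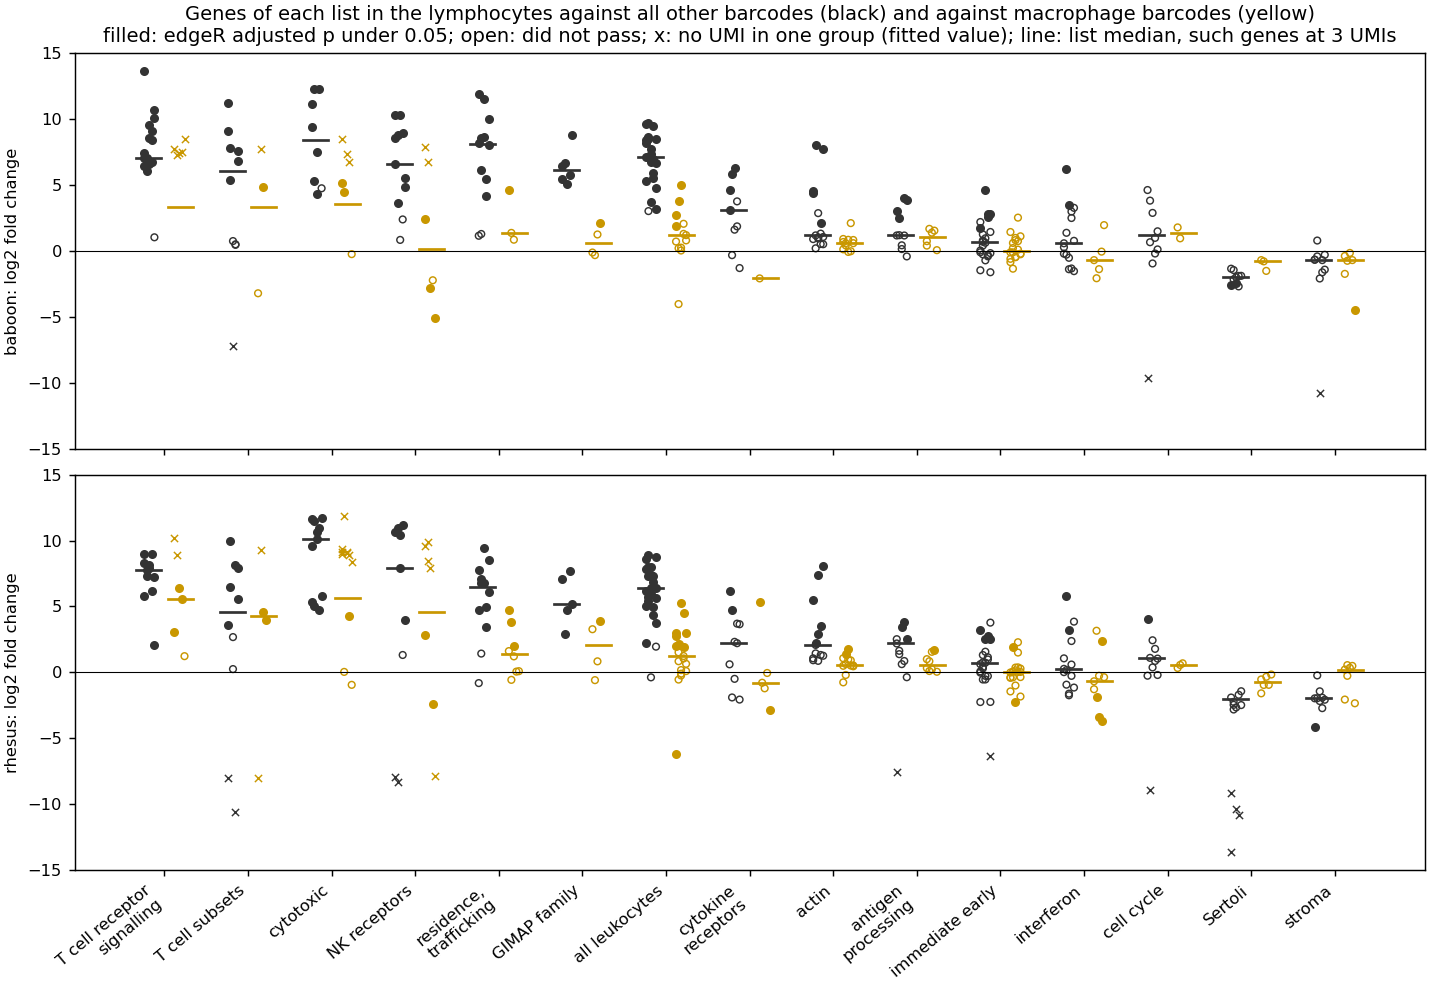
Log2 fold change of each gene of 15 lists (along the x axis) in lymphocytes against other barcodes (black) and against macrophage-rule barcodes (yellow), in each species. Filled points passed edgeR's test at adjusted p under 0.05, open points did not, a cross marks a gene without a UMI in one group, and the line is the list's median with such genes at the floor of 3 UMIs.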

How the data were processed

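Single-cell RNA was counted in 6 libraries of 4 animals. As deposited, the values are raw UMI counts per gene and barcode, made by the authors with Cell Ranger 3.1.0 (Seurat 3.2.3 is also named in the submitters' processing notes) against Panubis1.0 (34178 genes) and Mmul_10 (21356 genes), without normalization or cell calling. No symbol in the files begins with MT-, and no mitochondrial share was computed. Genes were matched by symbol, 312 of 356 list genes in the rhesus monkey and 313 in the baboon. Where a symbol was listed more than once (44 rhesus symbols), the rows were kept apart under symbol and gene identifier and were not matched to a list. Rhesus C1QA and baboon TRAC and GZMB were among the symbols not analysed here.

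Barcodes of at least 500 UMIs were classed by the rule given above, in scipy 1.17.1, numpy 2.4.6 and pandas 2.3.3 under Python 3.11.15. The lymphocyte rule and the 26 gene lists were chosen with earlier results of these data known. No doublet caller was run, and doublets were kept. Libraries of 1 animal were summed, counts were summed per animal and class, and the classes were tested in each species with edgeR 4.0.16 in R 4.3.3 (TMM, filterByExpr, quasi-likelihood test, Benjamini-Hochberg adjustment over all genes tested, threshold 0.05, class the only term). Lymphocytes and other barcodes of an animal come from the same animal, so the sums are paired; their deviations from the group means correlated across genes at 0.186 (others) and 0.407 (macrophages) in the baboon. A sum needed at least 10 barcodes, which left the lymphocytes of rhesus monkey 1 as 1 sum. The SE printed after a log2 fold change was derived from the test, as its absolute value over the square root of the quasi-likelihood F statistic. It is not a spread over animals. In simulated counts with genes changed by a log2 fold change of 2, the test against other barcodes found 19.1% of 194 changed genes (baboon, 15516 genes) and 13.2% of 189 (rhesus, 13791 genes), and against macrophages 80.7% of 161 (1234 genes) and 43.8% of 185 (3532 genes).

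The genes named were the 14 of the rule, the 15 highest (UMIs in at least 5 lymphocytes and in every animal that had lymphocytes) and 10 lowest (at least 100 CPM in the other barcodes of both animals) that passed in each species, the list members with the most UMIs, genes that define subsets, and the 10 highest in both species. Some of the genes so chosen are not reported here. Alternatives were other UMI and marker minimums, no limit on macrophage genes, leaving out barcodes above the 95th percentile of UMIs, no TMM, no filter, libraries as samples, the animal as a block, DESeq2 1.42.0 and leaving out each library. Between libraries of version 2, 65 to 337 barcode sequences were shared per pair, none of them lymphocytes of both.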

Additional observations from a re-analysis of the deposited data

Results flagged for a closer look

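CD74 moved in different directions in the animals. It was at 194 CPM in the lymphocytes of rhesus monkey 1, below the 299 CPM of the other barcodes of that animal, and above them in both baboons, at 1541 against 133 CPM in baboon 1 and at 76.2 against 40.9 CPM in baboon 2. The difference was not tested. In library 1B of baboon 1, 79.6% of the CD74 UMIs of the lymphocytes lay in 1 barcode, which also held pericyte and endothelial UMIs.

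Barcodes under 100 UMIs, which no comparison used, also held UMIs of the 8 lymphocyte markers, 27 in baboon 1A, 17 in 1B, 41 in baboon 2, 30 in rhesus 1, 9 in 2A and 16 in 2B. In CPM of these barcodes that is 7.40, 9.33, 16.6, 16.6, 2.83 and 4.56, against 6885, 5222, 4402 and 6280 in the lymphocytes of 1A, 1B, baboon 2 and rhesus 1, and against 0.759, 1.07, 1.52, 6.44, 3.96 and 2.19 in the other barcodes of at least 500 UMIs. The 2 rhesus libraries without a lymphocyte held such UMIs too, at the lowest CPM of the 6.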

How the results depend on the processing

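Each count of genes below stands beside that in the report. In the baboon, genes higher than in other barcodes numbered 364, 386 to 408 when a library of baboon 1 was left out, 566 without a filter on low counts and 631 with DESeq2. The count of lower genes was less steady, 53 as reported, 126 at 1000 UMIs, 133 with at least 2 markers, 34 with at least 4, 215 without barcodes above the 95th percentile of UMIs, 263 without a filter, 178 with libraries as samples and 90 to 123 when a library was left out. Against macrophages, 37 were higher, 21 with at least 2 markers, 6 without the deepest barcodes, 75 without a filter and 23 to 58 when a library was left out, and 76 were lower, 21 without the deepest barcodes and 57 to 75 when a library was left out. The lymphocytes themselves numbered 26 to 53 without one baboon library, the lowest without baboon 2.

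In the rhesus monkey, genes higher than in other barcodes numbered 314, 75 with libraries as samples and 195 to 200 when 2A or 2B was left out. Lower genes numbered 89, 37 at 1000 UMIs, 46 with at least 2 markers, 26 with at least 4, 223 without the deepest barcodes, 195 without TMM, 173 without a filter, 2 with libraries as samples, 30 with DESeq2 and 11 to 22 when 2A or 2B was left out. Against macrophages, 105 were higher, 53 at 1000 UMIs, 20 without the deepest barcodes, 30 with DESeq2 and 0 to 68 when 2A or 2B was left out, and 188 were lower, 76 at 1000 UMIs, 17 without the deepest barcodes, 46 with DESeq2 and 0 to 124 when 2A or 2B was left out. The lymphocytes numbered 0 to 56 without one rhesus library, since all came from monkey 1.

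An alternative added after seeing the data left out lymphocytes with UMIs of 3 or more genes of another cell type. Then 37 rhesus lymphocytes remained, 449 baboon genes were lower than in other barcodes and 64 higher than in macrophages. With the animal as a replicate block, 332 baboon genes were lower than in other barcodes, and 78 were higher and 124 lower than in macrophages. In the rhesus monkey the paired fit has no residual degrees of freedom and gave no test.

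Of 383 tested values of 34 baboon genes named by the rule, 376 kept their direction and their side of the threshold, and 26 values without baboon 2 had no test. Among these GNLY changed sign (−2.59), baboon 2 being the one library with UMIs of it in lymphocytes. It passed in 6 alternatives, and ACSM3 did not pass with at least 4 markers. Of 307 tested values of 28 rhesus genes, 269 kept theirs and 37 no longer passed, 14 of them with libraries as samples and 7 with DESeq2. CD4 turned to 2.88 with at least 2 markers (adjusted p = 0.459). The cause of these changes was not tested.

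Shares of lymphocytes with a UMI were higher without thinning. Thinned to 500 UMIs and not thinned, they were 18.5% and 49.2% (CD8A), 13.8% and 44.6% (CD8B, 25% at 1000 UMIs), 12.3% and 40% (PRF1), 23.1% and 43.1% (KLRD1) and 0% and 7.69% (CD4) in the baboon, and 19.6% and 53.6% (CD8A), 48.2% and 69.6% (GZMB, 62.5% at 1000 UMIs), 10.7% and 28.6% (PRF1) and 23.2% and 53.6% (KLRD1) in the rhesus monkey. The lymphocytes came from 3 animals, in the rhesus monkey from 1, and genes with few UMIs in them could not be tested. All rhesus p-values rest on the spread of other sums.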

Other observations

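Of the 99 genes higher in lymphocytes of both species and on no list, 8 are named here, chosen after their values were seen. S100A4, a calcium-binding protein of motile cells, was the most abundant of them, at 2087 and 2350 CPM in the lymphocytes of baboons 1 and 2 against 13.3 and 8.09 CPM in other barcodes (log2 fold change 7.59 ± 0.57), and at 3323 CPM in rhesus monkey 1 against 172 and 37.0 CPM in the other barcodes of monkeys 1 and 2 (4.91 ± 0.84). It was also higher than in macrophages, by 4.43 ± 0.52 and 2.53 ± 0.46. FYB1, an adaptor of the T cell receptor, rose by 8.92 ± 0.52 and 6.35 ± 0.63, SLA, which lowers receptor signals, by 8.91 ± 0.65 and 7.70 ± 0.65, and PVRIG, an inhibitory receptor, by 8.71 ± 0.94 and 7.48 ± 0.64. TBC1D10C, which restrains Ras and calcineurin signals, rose by 9.33 in the baboon and by 8.21 in the rhesus monkey. TMC8 rose by 10.58 and 7.13, GPR65, an acid-sensing receptor, by 8.40 and 7.81, and PLAAT4 by 6.29 and 6.02. Against macrophages FYB1 had log2 fold changes of 1.36 and 0.87 (edgeR adjusted p = 0.225 and 0.676) and GPR65 of 0.04 and 1.54 (0.992 and 0.221), and neither passed, while PLAAT4 passed in both species (3.43 and 3.13). In the baboon FYB1, SLA, PVRIG, TBC1D10C, TMC8 and GPR65, and in the rhesus monkey TMC8, could be tested against other barcodes only because of their level in the lymphocytes, as could S100A4, FYB1, GPR65 and PLAAT4 in the baboon and PLAAT4 in the rhesus monkey against macrophages, so that their values describe size only.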
